A study of Homo sapiens with 6 samples.

Results

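The nuclear-encoded subunits of the mitochondrial respiratory chain were followed in TC71, an established Ewing sarcoma cell line, with and without knockdown of EHD1, an endocytic trafficking protein. They were taken from the gene count table by symbol, as the NDUF, SDH, UQCR, CYC1, COX and ATP5 genes for the subunits of complexes I to V, and 76 of the 60676 genes listed matched. Of these, 37 were counted with complex I, 4 with complex II, 9 with complex III, 11 with complex IV and 15 with complex V. NDUFA4 was counted with complex IV, where its protein is known to belong, in spite of its symbol. The cells were polyclonal lines selected after lentiviral transduction, and carried a construct that, once doxycycline (Dox) is given, expresses either a non-targeting shRNA (shNTC) or an shRNA to EHD1 (shEHD1). Both lines received 0.5 µg/ml Dox for 3 days, and 3 RNA-seq libraries of each were compared. The labels do not state which EHD1 shRNA was expressed or whether the libraries of a group came from separate cultures, so that p-values measure only the spread between these libraries, which may be technical. The libraries are called controls (shNTC+Dox) and knockdown (shEHD1+Dox) below, with values in the order of replicates 1, 2 and 3. Total counts were 26528902, 28203023 and 22711235 for the controls and 28157184, 24150135 and 30582187 for the knockdown.

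The respiratory chain sits in the inner mitochondrial membrane. Complexes I and II pass electrons from NADH and succinate to ubiquinone, complex III passes them on to cytochrome c, and complex IV hands them to oxygen. Complexes I, III and IV pump protons as they do so, and complex V, the ATP synthase, uses the gradient to make ATP. Most subunits are encoded in the nucleus, made in the cytosol and imported, and a small set that forms the hydrophobic core of complexes I, III, IV and V is encoded in the mitochondrial DNA. Complex II has nuclear subunits only. Transcripts were measured here, not proteins or respiration.

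EHD1 itself (ENSG00000110047, chr11:64851642-64888296 on hg38), the target of the shRNA, was measured first. It had 27.1, 28.0 and 26.4 CPM in the controls and 7.55, 7.15 and 9.37 CPM after knockdown, where CPM are counts scaled to a common library size with TMM normalization. All 3 knockdown libraries were far under the controls, and the log2 fold change was -1.76 (SE 0.12, adjusted p = 0.000135 by edgeR). Of 14 markers of Ewing sarcoma cells, 13 were detected above the filter, with summed levels of 2913, 2915 and 2989.9 CPM in the controls and 2809.98, 2939 and 2889.9 CPM after knockdown. CAV1 was the most abundant of them, and FLI1, EWSR1, NKX2-2 and CD99 were all present. Of 14 markers of blood, epithelial, endothelial, fibroblast and muscle cells, CD3E, MYOD1, MYOG and DES were among those with no count in any library, and 5 passed the filter, with KRT18 the most abundant. These 5 summed to 47.3, 46.8 and 37.7 CPM in the controls and 48.1, 47.2 and 54.9 CPM after knockdown. DCN, a proteoglycan of fibroblasts, was called lower (log2 fold change -1.01, adjusted p = 0.00778 by edgeR), while KRT8 (0.62), LUM (0.44), KRT18 (0.23) and ACTA2 (0.20) did not pass the test. Among the Ewing sarcoma markers, STEAP1 (-0.43) and BCL11B (-0.75) were called lower and CD99 (0.33) higher, as log2 fold changes. The part of these markers in the results on the subunit genes was not tested.

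All 76 subunit genes passed the filter of at least 10 counts in at least 3 libraries, and the lowest count of any of them in any library was 522. Their levels spanned a wide range. The lowest and the highest level per kilobase of canonical transcript in shNTC+Dox are given here for each complex, in CPM per kilobase. They were 7.31 ± 0.488 for NDUFV3 and 474 ± 17.4 for NDUFB9 in complex I, both accessory subunits (mean ± SD over the 3 libraries, as for all levels with ± hereafter). In complex II they were 37.7 ± 2.26 for SDHA, the flavoprotein, and 204 ± 7.72 for SDHB, the iron-sulfur subunit. In complex III they were 15.3 ± 1.52 for UQCRB and 493 ± 30.8 for UQCRH, and in complex IV 60.8 ± 3.99 for COX7B and 458 ± 42.3 for COX7C. In complex V they were 39.9 ± 1.53 for ATP5F1E, the epsilon subunit, and 1089 ± 86.0 for ATP5F1B, the catalytic beta subunit and the highest of all 76. Subunits of the same complex thus differed many fold by this measure, which depends on which transcript is taken as canonical. In mean control CPM, without division by length, NDUFV3 (41.9), UQCRB (129), COX7B (149) and ATP5F1E (144) were not lowest in their complexes. NDUFA3 (24.3), UQCR10 (51.3), COX6C (63.4) and ATP5F1D (58.0) were lower, while SDHA was still lowest in complex II. Transcripts of the subunit genes were short, with a median canonical length of 783.5 bases against 2822 over all genes tested.

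**Figure D1:**
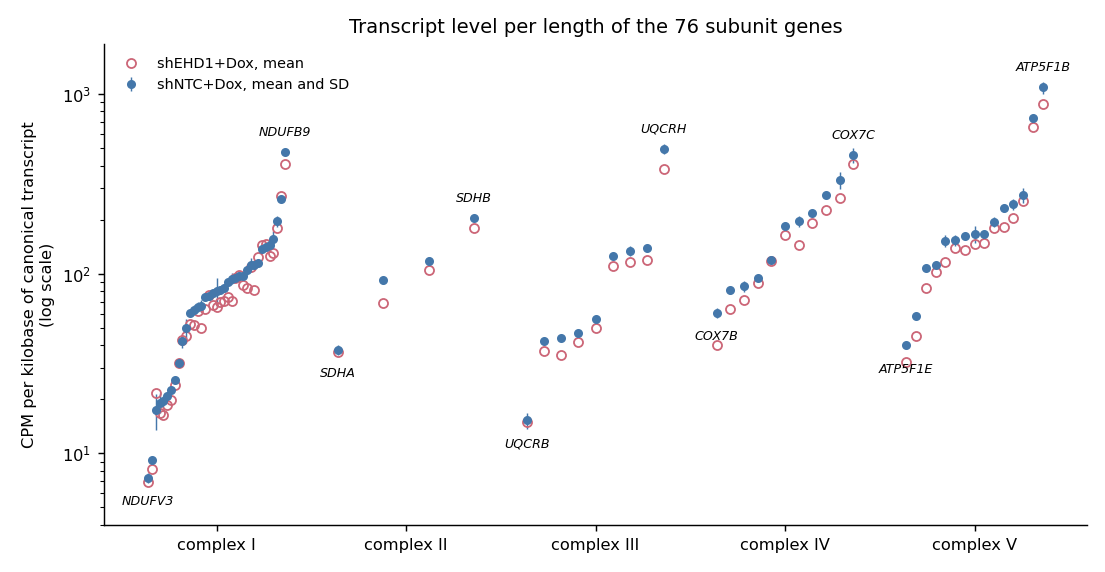
Level of the 76 subunit genes by complex, as CPM per kilobase of canonical transcript on a log scale. Filled blue points are shNTC+Dox means with SD over 3 libraries, and open red circles are shEHD1+Dox means; genes are ordered by their shNTC+Dox level within each complex. ATP5F1B stands highest and NDUFV3 lowest, and most red circles lie just under their blue points.

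Transcripts of 20 of the 76 genes were lower in shEHD1+Dox and none was higher at an adjusted p under 0.05, by edgeR's quasi-likelihood test with Benjamini-Hochberg adjustment over 16785 genes. That is 26.3% of the subunit genes, against 8.75% of all genes tested that were lower and 8.59% that were higher. At an unadjusted p under 0.05 the counts were 40 of 76 lower and 0 higher (16.3% and 16% of all genes), and DESeq2's Wald test called 29 lower and 0 higher (against 11.1% and 10.5% of all genes). Changes were small. The median log2 fold change of the 76 genes was -0.19, against 0.00 over all genes tested, with quartiles of -0.28 and -0.12 and a range from -0.60 (COX7B) to 0.31 (NDUFC2). None passed the 2-fold threshold, which 1.74% of all genes passed downwards and 1.08% upwards. Log2 fold changes were below 0 for 67 of the 76 genes, while 49.9% of all genes tested were below 0 and 50.1% above. All 9 genes above 0 belonged to complex I.

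Non-overlap of the groups was also one-sided. For 44 genes (57.9%), the highest knockdown library was under the lowest control, which held for 19.4% of all genes tested. For 0 genes were all knockdown libraries above the controls, against 19.9% of all genes, and for the other 32 the groups overlapped. Summed over the 76 genes, the level was 11636, 11858 and 11116 CPM in the controls and 10149, 9266 and 10459.6 CPM after knockdown. The knockdown mean was thus 86.3% of the control mean, and the groups did not overlap. In bulk libraries, a lower level in every cell and a larger share of cells with a low level cannot be told apart.

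**Figure D2:**
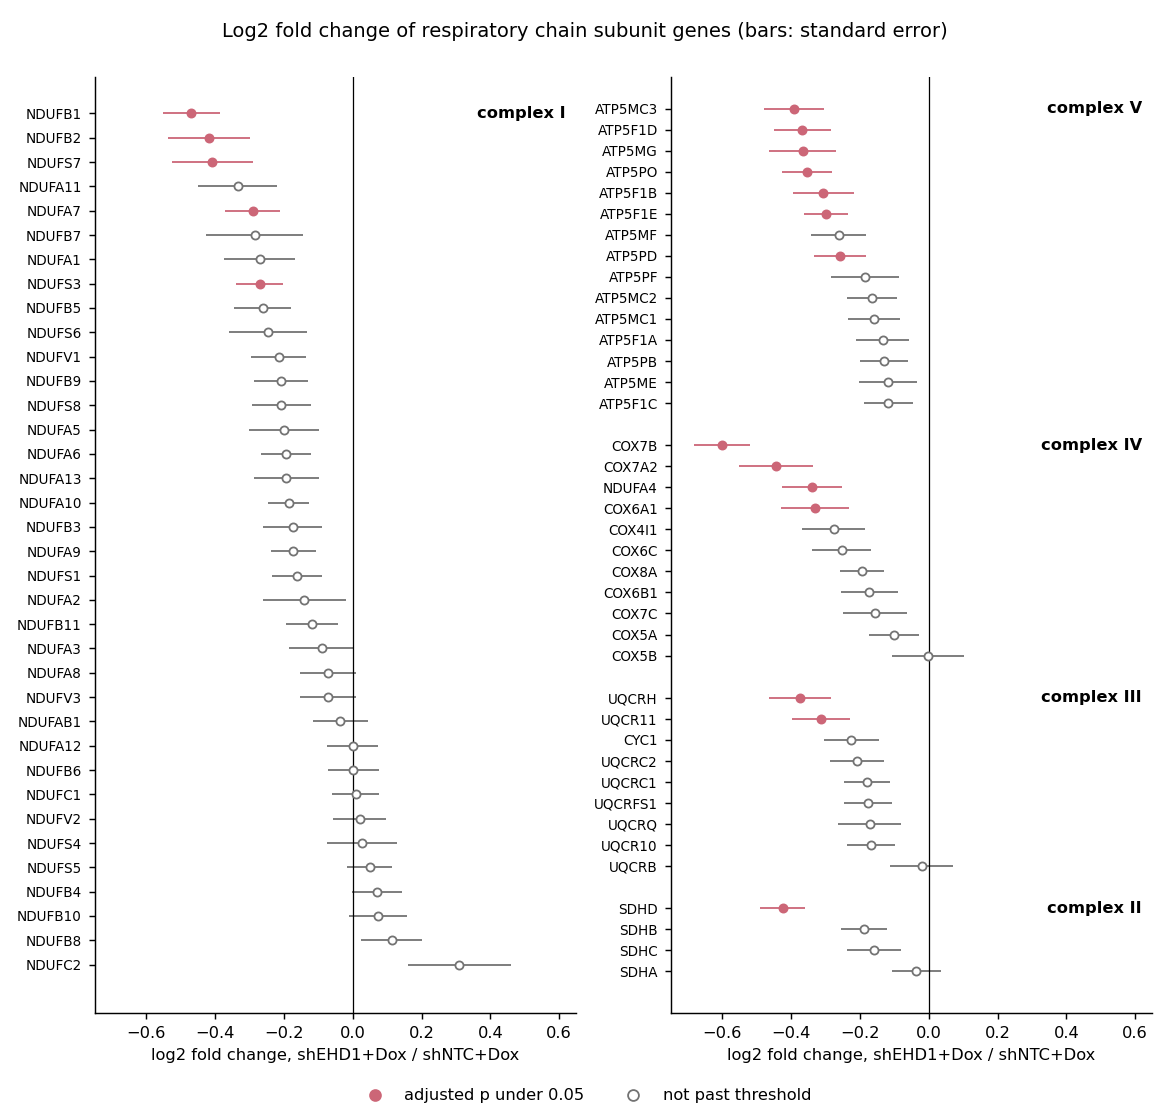
Log2 fold change (shEHD1+Dox over shNTC+Dox) of the subunit genes, grouped by complex and ordered by value, with bars for the standard error; 1 called gene of complex I is not shown. Filled red points passed an adjusted p under 0.05. All filled points lie left of 0, and the only genes right of 0 are 9 of complex I.

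The calls rested on small differences. COX6A1, at an adjusted p of 0.0491, was the called gene nearest the threshold, ATP5MF, at 0.0548, the nearest gene outside it, and 11 uncalled genes lay between 0.05 and 0.1. With 1 library left out, edgeR called 6 genes lower without control replicate 1 (7.89%, against 5.37% of all genes), 5 without control replicate 2 (6.58% against 6.40%) and 26 without control replicate 3 (34.2% against 10.5%), 18 of the 20 among them. It called 4 without knockdown replicate 1 (5.26% against 4.39%), 8 without knockdown replicate 2 (10.5% against 6.62%) and 14 without knockdown replicate 3 (18.4% against 4.15%). With the replicate number as a block, although the numbers did not pair the libraries, 6 were called (7.89% against 5.31%). The share called was thus close to that of all genes without control replicate 2 or knockdown replicate 1. Fold changes were steadier, and 65 to 69 genes were below 0 in each of these refits. SDHD, COX7B, NDUFB1 and ATP5PO were called in all 16 refits, which were the 6 with a library left out and 10 others with another normalization, filter, test, block, offset or way of counting. At the other end, NDUFS7 was called in 0 of the 6 with a library left out, and NDUFB2, NDUFA7, COX6A1, ATP5PD and ATP5F1B were among those called in 1 of the 6.

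Knockdown replicate 2 stood apart from the other libraries. It was the lowest of its group for 66 of the 76 genes, and knockdown replicate 3 was the highest for 58. Relative to its mean over the 6 libraries, mean log2 CPM of the 76 genes was 0.09, 0.12 and 0.08 in the controls and -0.07, -0.20 and -0.01 after knockdown. Cytosolic ribosomal proteins, another large set of abundant transcripts, had 0.07, 0.10 and -0.06 in the controls and 0.06, -0.25 and 0.09 after knockdown. Knockdown replicate 2 was thus low for both sets. Knockdown replicate 1 was below 0 for the subunit genes and above 0 for the ribosomal proteins. Knockdown replicate 3 was above 0 for the ribosomal proteins and only just below 0 for the subunit genes. It had 0.01 for complex I and was below 0 for complexes II to V. Without knockdown replicate 2, the median log2 fold change of the subunit genes was -0.15. None of the 79 ribosomal protein genes was called by edgeR, and their median log2 fold change was -0.07, with 67 of the 79 below 0 and 3 of them at an unadjusted p under 0.05 and 2 called by DESeq2's Wald test.

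**Figure D3:**
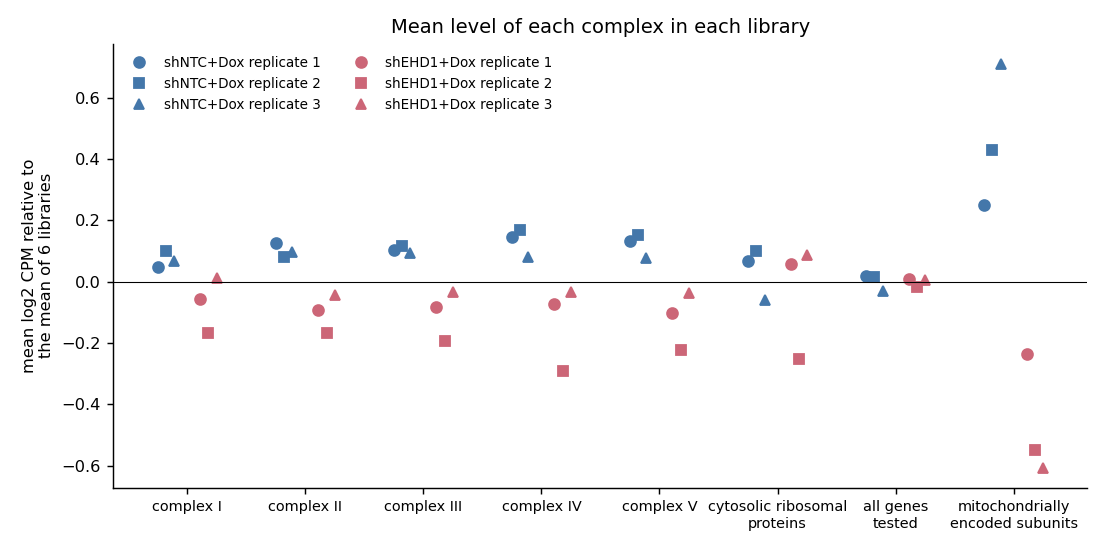
Mean log2 CPM of the subunit genes of each complex in each library, relative to the mean of the 6 libraries, with cytosolic ribosomal proteins, all genes tested and the mitochondrially encoded subunits beside them. Blue symbols are shNTC+Dox and red symbols shEHD1+Dox, with circles, squares and triangles for replicates 1, 2 and 3. In each of the 5 complexes the 3 blue symbols lie above the 3 red ones, and the red square (shEHD1+Dox replicate 2) is lowest there and in ribosomal proteins.

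In complex I, the NADH dehydrogenase, 6 of 37 genes were lower (16.2%, against 8.75% of all genes), and the median log2 fold change was -0.17. The call count of complex I was 1 of 37 (2.7%) without control replicate 1, control replicate 2, knockdown replicate 1 or knockdown replicate 2, below the 5.37%, 6.40%, 4.39% and 6.62% of all genes in these refits. It was 4 without knockdown replicate 3, 8 without control replicate 3, and 1 with the replicate block or without a filter on low counts. NDUFB1, an accessory subunit of the membrane arm, had 36.4, 37.3 and 33.3 CPM in the controls and 25.4, 24.7 and 27.3 CPM after knockdown. The groups were well apart, and its log2 fold change was -0.47 (SE 0.08, adjusted p = 0.00684 by edgeR). NDUFB2, another accessory subunit of the membrane arm, had 40.4, 44.3 and 46.3 CPM in the controls and 32.9, 27.2 and 37.8 CPM after knockdown. This gave a log2 fold change of -0.42 (SE 0.12, adjusted p = 0.0436 by edgeR), with a wider spread after knockdown, where replicate 2 was lowest. NDUFS7, a core subunit that binds the iron-sulfur cluster next to the ubiquinone site, had 45.6, 52.6 and 51.8 CPM in the controls and 40.7, 30.9 and 41.4 CPM after knockdown. Its groups were apart, and the log2 fold change was -0.41 (SE 0.12, adjusted p = 0.0455 by edgeR). NDUFS7 did not pass in any of the 6 refits with a library left out (adjusted p up to 0.110) nor with the replicate block (adjusted p = 0.0829 by edgeR).

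Other called genes of complex I included NDUFA7, an accessory subunit (-0.29), and NDUFS3, a core subunit (-0.27), given as log2 fold changes. Of the 7 nuclear core subunits, which carry the cofactors and the catalytic steps of the peripheral arm, 3 were called (42.9%, against 8.75% of all genes) and 6 were below 0 (49.9% of all genes), with a median log2 fold change of -0.21. NDUFV1, the core subunit that binds NADH and flavin, was not called (-0.22, adjusted p = 0.0955 by edgeR). Of the 30 accessory subunits, 3 were called (10%, near the 8.75% of all genes), 22 were below 0, and the median log2 fold change was -0.16. The split into core and accessory subunits was made after values had been seen, and the difference between core and accessory subunits was not tested.

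Complex I also held the genes at the other end. NDUFC2, a membrane arm subunit, had 31.01, 35.4 and 47.5 CPM in the controls and 43.1, 46.9 and 51.0 CPM after knockdown. The control libraries were widely spread and overlapped the others, and the log2 fold change was 0.31 (SE 0.15, adjusted p = 0.191 by edgeR). Its exons are shared with the readthrough gene NDUFC2-KCTD14, which was listed with 469, 416 and 247 counts in the controls and 312, 137 and 148 after knockdown. With both added together, the log2 fold change was 0.04 (adjusted p = 0.775 by edgeR). Without control replicate 3, NDUFC2 was called higher, at 0.50 with an adjusted p of 0.00455, the only subunit gene called higher in any of the 16 refits (11.4% of all genes were called higher without this library). NDUFB8 (0.11, SE 0.09) and NDUFB10 (0.07, SE 0.08), accessory subunits of the membrane arm, had the next highest log2 fold changes and did not pass the test. NDUFV3 had -0.07 and NDUFB9 -0.21, and neither passed.

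**Figure D4:**
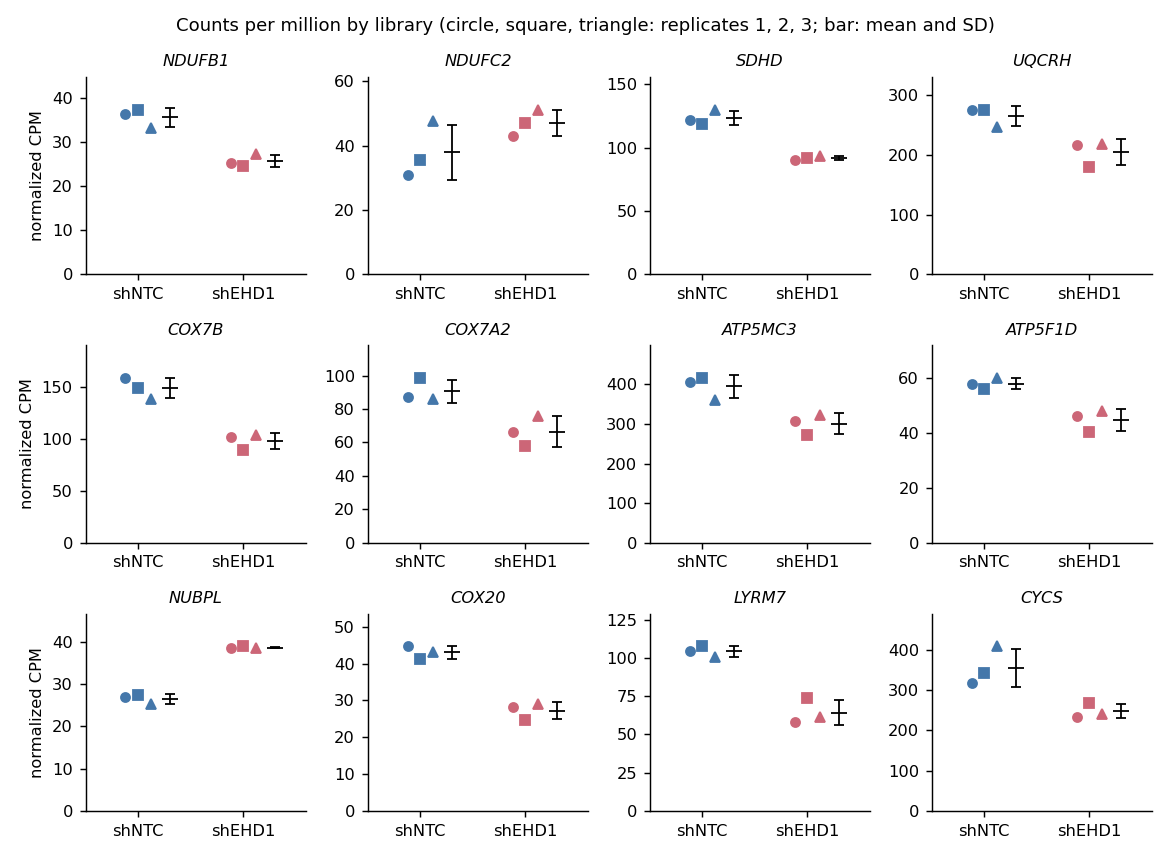
Normalized CPM of 12 genes in each library, on linear axes from 0. Blue marks shNTC+Dox, red marks shEHD1+Dox, circles, squares and triangles are replicates 1, 2 and 3, and black bars give the mean and SD. Groups do not overlap in any panel but NDUFC2, and NUBPL is the only panel with every red symbol above every blue one.

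Complex II, succinate dehydrogenase, has only 4 subunits, and 1 of 4 was lower (25.0%, against 8.75% of all genes). SDHD (ENSG00000204370, chr11:112086824-112120016 on hg38), a membrane anchor that holds heme and the ubiquinone site, had 122, 118 and 129.7 CPM in the controls and 90.5, 91.8 and 93.2 CPM after knockdown. The libraries of each group were close together and the groups far apart, with a fall to 74.5% of the control mean and a log2 fold change of -0.42 (SE 0.06, adjusted p = 0.00339 by edgeR). Its partner anchor SDHC had a log2 fold change of -0.16 (SE 0.08, adjusted p = 0.202 by edgeR). The iron-sulfur subunit SDHB had 213, 210.4 and 199 CPM against 187, 171 and 188 CPM, so that its groups did not overlap, but its log2 fold change of -0.19 did not pass in edgeR (adjusted p = 0.0878) and did in DESeq2's Wald test (adjusted p = 0.0442). SDHA, the catalytic flavoprotein, had 103, 94.8 and 107 CPM against 99.5, 95.1 and 103 CPM and a log2 fold change of -0.04 (SE 0.07, adjusted p = 0.763 by edgeR). The anchor thus fell while a change in the catalytic subunit was not detected, and the difference between the genes was not tested. Rows named as pseudogenes of SDHA held 14.4% of the counts of gene and pseudogenes together, the largest such share among the 76 genes. Exon bases of SDHD are shared with another gene on the same strand, and adding the counts of such genes left SDHD called. SDHA shares 1870 of 2693 canonical bases in this way. With the added counts, its log2 fold change was -0.08 (adjusted p = 0.452 by edgeR).

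In complex III, the cytochrome bc1 complex, 2 of 9 genes were lower (22.2%, against 8.75% of all genes), and the groups did not overlap for 8 of the 9, lower in knockdown (19.4% of all genes). Neither call was made without control replicate 1, control replicate 2 or knockdown replicate 1 or with the replicate block, while 1 gene of complex III was called without knockdown replicate 2 or 3 and 4 without control replicate 3. UQCRH, the acidic hinge protein at the docking site of cytochrome c, had 275, 274 and 246 CPM in the controls and 215, 179.7 and 218 CPM after knockdown. Its log2 fold change was -0.37 (SE 0.09, adjusted p = 0.023 by edgeR), and all 3 knockdown libraries were below the lowest control. UQCR11, a small accessory subunit, had 58.7, 56.0 and 56.8 CPM in the controls and 44.1, 42.8 and 51.0 CPM after knockdown. The groups were apart, at a log2 fold change of -0.31 (SE 0.08, adjusted p = 0.0336 by edgeR). The next lowest gene was CYC1, cytochrome c1, which carries heme and reduces cytochrome c, with 166, 170.1 and 158 CPM against 148, 126 and 149 CPM. Its log2 fold change of -0.22 did not pass in edgeR (adjusted p = 0.0885) and passed narrowly in DESeq2's Wald test (adjusted p = 0.0498). At the other end were the small subunits UQCRQ (-0.17, SE 0.09) and UQCR10 (-0.17, SE 0.07). UQCRB, a ubiquinone-binding subunit, had 119, 126 and 143 CPM against 117, 138 and 127 CPM and a log2 fold change of -0.02 (SE 0.09, adjusted p = 0.901 by edgeR), the only gene of complex III with overlapping groups.

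Complex IV, cytochrome c oxidase, had 4 of 11 genes lower (36.4%, against 8.75% of all genes), and the groups did not overlap for 9 of the 11, lower in knockdown (19.4% of all genes). The count fell to 1 of 11 (9.09%) without control replicate 2, knockdown replicate 1 or knockdown replicate 2 and with the replicate block. It was 2 without control replicate 1, 3 without knockdown replicate 3 and 4 without control replicate 3. COX7B (ENSG00000131174, chrX:77899440-77907376 on hg38), a small membrane subunit, had 158, 149 and 139 CPM in the controls and 101, 89.2 and 103 CPM after knockdown. The 3 libraries of each group were close and the groups far apart, and the mean fell from 149 ± 9.76 to 97.9 ± 7.63 CPM, to 65.9% of control. Its log2 fold change of -0.60 (SE 0.08, adjusted p = 0.00217 by edgeR) was the lowest of all 76 genes. COX7A2, the widely expressed isoform of subunit 7A, had 87.4, 98.4 and 85.8 CPM in the controls and 66.0, 57.6 and 75.9 CPM after knockdown. The log2 fold change was -0.44 (SE 0.11, adjusted p = 0.023 by edgeR), and again knockdown replicate 2 was lowest. NDUFA4, once placed in complex I, had 165, 173 and 157 CPM against 135, 115 and 141 CPM and a log2 fold change of -0.34 (SE 0.09, adjusted p = 0.0295 by edgeR). COX6A1, the widely expressed isoform of subunit 6A, had 195, 183 and 158 CPM against 144, 128 and 154 CPM and a log2 fold change of -0.33 (SE 0.10, adjusted p = 0.0491 by edgeR).

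The remaining 7 genes of complex IV did not pass in edgeR. DESeq2's Wald test called 7 of the 11 lower (63.6%, against 11.1% of all genes), adding COX4I1, COX6C and COX8A. COX4I1, the widely expressed isoform of subunit 4, had a log2 fold change of -0.28 (adjusted p = 0.0716 by edgeR and 0.0283 by DESeq2's Wald test). The highest values were those of COX7C (-0.16, SE 0.09), COX5A (-0.10, SE 0.07) and COX5B. COX5B, which binds zinc, had 85.0, 81.7 and 78.8 CPM against 93.5, 69.2 and 82.3 CPM and a log2 fold change of -0.0020 (SE 0.10, adjusted p = 0.992 by edgeR). Its knockdown libraries lay on both sides of the controls, and the sign of its log2 fold change turned in 4 refits. The tissue-restricted isoforms COX4I2, COX6A2, COX7A1 and COX7B2 had no count in any library.

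Complex V, the ATP synthase, had 7 of 15 genes lower (46.7%, against 8.75% of all genes), and all 15 log2 fold changes were below 0. With a library left out, edgeR called 1 of the 15 without knockdown replicate 1, 2 without control replicate 1, 2 without control replicate 2, 4 without knockdown replicate 2, 5 without knockdown replicate 3 and 8 without control replicate 3, and it called 3 with the replicate block. All 15 remained below 0 in each of these refits. In its catalytic F1 head, ATP5F1B had 1980.3, 2022 and 1742 CPM in the controls and 1596, 1424 and 1627 CPM after knockdown. It was the most abundant of the 76 transcripts, and its log2 fold change was -0.31 (SE 0.09, adjusted p = 0.0452 by edgeR). ATP5F1D, the delta subunit of the central stalk, had 58.0, 56.1 and 60.1 CPM in the controls and 46.3, 40.5 and 48.1 CPM after knockdown. The groups did not overlap and the log2 fold change was -0.37 (SE 0.08, adjusted p = 0.0181 by edgeR). ATP5F1E, the epsilon subunit beside it, had 138, 147 and 147 CPM against 116, 114 and 122 CPM and a log2 fold change of -0.30 (SE 0.06, adjusted p = 0.0152 by edgeR). The alpha subunit ATP5F1A, which alternates with beta in the head, had a log2 fold change of -0.13 (SE 0.08, adjusted p = 0.265 by edgeR), and the gamma subunit ATP5F1C, the rotor shaft, one of -0.12 (SE 0.07, adjusted p = 0.289 by edgeR). Of the 5 F1 genes, 3 thus passed (60%, against 8.75% of all genes) and 2 did not, and the difference between these genes was not tested. Without knockdown replicate 1 none of them passed in edgeR (adjusted p = 0.0611 for ATP5F1D, 0.0729 for ATP5F1E and 0.116 for ATP5F1B). Only ATP5F1E passed without control replicate 1, and only ATP5F1D without control replicate 2. ATP5F1B passed in 1 of the 6 refits with a library left out, and its adjusted p with the replicate block was 0.126 by edgeR.

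In the membrane part, 3 genes encode the same mature c subunit, whose ring turns as protons pass. ATP5MC3 had 407, 415 and 361 CPM in the controls and 307, 272 and 323 CPM after knockdown, and fell by 0.39 on the log2 scale (SE 0.09, adjusted p = 0.0169 by edgeR). ATP5MC2 (-0.16, SE 0.07) and ATP5MC1 (-0.16, SE 0.08) did not pass, although the groups did not overlap for either. Of the counts of the 3 c genes together, ATP5MC3 took 41.7, 41.6 and 39.0% in the controls and 37.5, 36.4 and 37.2% after knockdown. ATP5MC2 took 47.4, 47.9 and 49.0% in the controls and 50.9, 51.6 and 50.8% after knockdown, so that neither share overlapped between groups. The shares are parts of a whole, so a lower share of ATP5MC3 raises the others. The level of ATP5MC2 itself did not rise, as its log2 fold change of -0.16 shows. ATP5MC1 took 10.5 to 12.03% in the controls and 11.6 to 12.1% after knockdown, which overlap.

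The peripheral stalk and the small membrane subunits completed complex V. ATP5PO, the subunit that ties the stalk to the head, had 172, 186 and 170.1 CPM in the controls and 143, 129 and 141 CPM after knockdown. The groups were clearly apart, and its log2 fold change was -0.35 (SE 0.07, adjusted p = 0.0116 by edgeR). ATP5PD, the d subunit of the stalk, had a log2 fold change of -0.26 (SE 0.08, adjusted p = 0.0483 by edgeR), while ATP5PB, the b subunit (-0.13, adjusted p = 0.24 in edgeR), did not pass. ATP5MG, the g subunit, had 125, 122 and 115 CPM against 97.1, 80.0 and 104 CPM and a log2 fold change of -0.37 (SE 0.10, adjusted p = 0.034 by edgeR). The e subunit ATP5ME had -0.12 (SE 0.08) and did not pass.

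Summed CPM after knockdown were 91.0% of the controls for complex I, 87.1% for complex II, 86.1% for complex III, 83.5% for complex IV and 84.5% for complex V. In each complex, every knockdown sum was under every control sum. Mean log2 CPM differed between groups by -0.14, -0.20, -0.21, -0.26 and -0.24 for complexes I to V. Differences between the complexes were not tested, since subunit genes are not replicates.

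Short sequences near the transcription starts were read for motifs of factors known to act on respiratory genes. RefSeq promoters (GRCh38.p14, 250 bases before to 50 after the start) were found for 62 of the 76 genes, 15 of them called. The motif of NRF1, GCGCANGCG, was searched on both strands, and 22 of the 62 genes held it (35.5%), against 9.02% of all 27305 genes with a promoter there. The core of ETS factors, CCGGAAG, was held by 20 (32.3%, against 12.2%), and that of YY1, AAGATGGCG, by 9 (14.5%, against 2.14%). The motif of estrogen-related receptors (ERR), TNAAGGTCA, was held by 2 (3.23%, against 1.17%). None of the 4 motifs lies within another. The 27305 genes were not limited to the 16785 genes tested, while all 62 subunit genes passed the count filter. The sets are unlike in that respect, and shares among tested genes alone are not given. NRF1 motifs stood in 5 of the 15 called and 17 of the 47 other genes, ETS motifs in 7 of 15 and 13 of 47, and YY1 motifs in 2 of 15 and 7 of 47. Windows of 30 bases are shown for called genes, on the strand of the gene, with the motif or its reverse complement in capitals. SDHD is shown because 3 of the 4 motifs occur in it, at chr11:112086753-112086782, chr11:112086785-112086814 and chr11:112086874-112086903 (plus strand). NDUFS7 is shown because NRF1 and YY1 motifs both occur in it, at chr19:1383823-1383852 and chr19:1383914-1383943 (plus strand). ATP5PO at chr21:33915808-33915837 (minus strand) holds another NRF1 motif, and UQCRH at chr1:46303641-46303670 (plus strand) another ETS motif.
SDHD, NRF1: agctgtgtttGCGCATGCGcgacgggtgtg
SDHD, ETS: ccgcctctcgaCTTCCGGttcacccagcat
SDHD, ERR: ggttggtggaTGACCTTGAgccctcaggaa
NDUFS7, NRF1: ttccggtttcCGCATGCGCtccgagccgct
NDUFS7, YY1: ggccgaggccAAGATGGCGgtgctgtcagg
ATP5PO, NRF1: cgccaacgcgCGCGTGCGCccttgcgcgtt
UQCRH, ETS: agtgtgccgcaCTTCCGGccagatcgccgg

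These matches describe letters in a window, not binding. Of the factors and coactivators that act on nuclear respiratory genes, 13 of 14 were high enough to test and 3 passed, all lower (23.1%, against 8.75% of all genes), with a median log2 fold change of -0.20. PPARGC1B, a coactivator of the PGC-1 family, had 31.6, 30.6 and 31.6 CPM in the controls and 18.2, 22.4 and 17.9 CPM after knockdown. The coactivator had a log2 fold change of -0.68 (SE 0.11, adjusted p = 0.00375 by edgeR), and the groups were far apart. ESRRA, the estrogen-related receptor alpha, had 40.2, 42.5 and 44.6 CPM against 32.4, 29.6 and 32.0 CPM and a log2 fold change of -0.44 (SE 0.08, adjusted p = 0.00684 by edgeR), and MYC fell by 0.30. NRF1 (-0.21, SE 0.11), GABPA (-0.07, SE 0.07), YY1 (-0.14, SE 0.07) and TFAM (-0.12, SE 0.11) did not pass. PPARGC1A had no count in any library.

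The subunits encoded in the mitochondrial DNA fell as well. All 13 were lower (against 8.75% of all genes), with a median log2 fold change of -0.95 (against -0.19 for the nuclear subunits) and a range from -1.28 (MT-ND1) to -0.48 (MT-ND3). Summed, they had 23808, 27022 and 32175 CPM in the controls and 17087, 13428 and 13186 CPM after knockdown, or 52.6% of control. Their groups did not overlap. Their sum was highest in control replicate 3 and lowest in knockdown replicate 3, whereas that of the nuclear subunits was highest in control replicate 2 and lowest in knockdown replicate 2. MT-ND1 of complex I had 950.1, 1056 and 1533 CPM against 555, 481 and 425 CPM, and MT-CO1, the catalytic subunit of complex IV, 5734, 6720.4 and 7633 CPM against 3909, 2969 and 2754 CPM. In bulk RNA, fewer mitochondrial genomes and less RNA from each cannot be told apart. With the mitochondrial genes left out before normalization, 20 nuclear subunit genes were again lower.

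**Figure D5:**
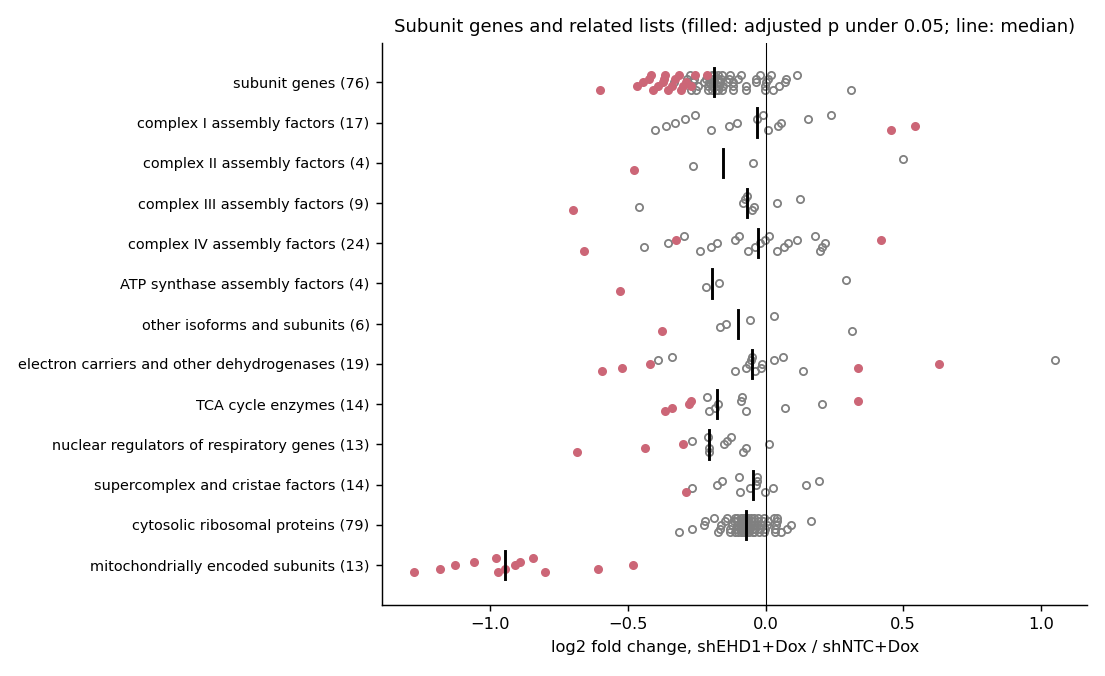
Log2 fold change of each tested gene in 13 lists, with the number of genes in brackets. Filled red points passed an adjusted p under 0.05, and black lines are medians. All 13 mitochondrially encoded subunits lie far left of 0, the nuclear subunit genes have a median of -0.19, and the assembly factor lists hold points on both sides.

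Assembly factors build the complexes without being part of them. Taken over the 5 complexes, their shares of called genes were near or under those of all genes. Of the 58 tested, 5 were lower (8.62%, against 8.75% of all genes) and 3 higher (5.17%, against 8.59%). Groups did not overlap, lower in knockdown, for 29.4, 25, 22.2, 33.3 and 50% of factors of complexes I to V (19.4% of all genes). Knockdown was higher without overlap for 3 factors of complex I, 1 of complex IV and 0 others (19.9% of all genes). Of the 17 for complex I, 2 passed the test and both rose (11.8%, against 8.59% of all genes), with a median log2 fold change of -0.03. NUBPL, which delivers iron-sulfur clusters to complex I, had 26.8, 27.3 and 25.2 CPM in the controls and 38.4, 38.8 and 38.5 CPM after knockdown. All knockdown libraries were above the controls, with a log2 fold change of 0.54 (SE 0.07, adjusted p = 0.00209 by edgeR). NDUFAF3, an early assembly factor, rose, with a log2 fold change of 0.46 (SE 0.07, adjusted p = 0.00367 by edgeR). Of the 4 for complex II, SDHAF2, which attaches flavin to SDHA, fell by 0.48 (adjusted p = 0.034 by edgeR). It was the only one to pass (25%, against 8.75% of all genes). Of the 9 for complex III, LYRM7, a chaperone of the Rieske protein, fell from 104 ± 3.33 to 64.2 ± 8.28 CPM (log2 fold change -0.70). LYRM7 was the only one to pass (11.1%, against 8.75%).

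Of the 24 assembly factors of complex IV, 2 fell (8.33%, near the 8.75% of all genes) and 1 rose (median log2 fold change -0.03). COX20, a chaperone of the mitochondrially encoded subunit MT-CO2, had 44.6, 41.2 and 43.3 CPM in the controls and 28.1, 24.6 and 29.01 CPM after knockdown. This chaperone had a log2 fold change of -0.66 (SE 0.09, adjusted p = 0.00183 by edgeR). LRPPRC, which stabilizes mitochondrial mRNAs, fell by 0.32, and COX18, which helps to insert MT-CO2 into the membrane, rose, with a log2 fold change of 0.42. Of the 4 factors of the ATP synthase, ATPAF2, a chaperone of the alpha subunit, fell by 0.53 (adjusted p = 0.0309 by edgeR). It was the only one to pass (25%, against 8.75% of all genes). Among 6 tested isoforms and further subunits, 1 fell (16.7%, against 8.75% of all genes), ATP5IF1, the inhibitor of the ATP synthase, with a log2 fold change of -0.38 (SE 0.09, adjusted p = 0.0229 by edgeR).

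Of 19 electron carriers, ubiquinone synthesis enzymes and other dehydrogenases that feed the chain, 3 fell (15.8%, against 8.75% of all genes) and 2 rose (10.5%, near the 8.59% of all genes). CYCS, cytochrome c, had 317, 343 and 408 CPM in the controls and 234, 268 and 242 CPM after knockdown. Its log2 fold change was -0.52 (SE 0.10, adjusted p = 0.0102 by edgeR), and its groups did not overlap. PDSS1 (-0.59) fell and PDSS2 (0.34) rose, although both belong to the enzyme that makes the ubiquinone side chain. COQ5, a methyltransferase of ubiquinone synthesis, rose, with a log2 fold change of 0.63 (SE 0.09, adjusted p = 0.00315 by edgeR), and COQ4, of the same pathway, fell (-0.42). Of 14 TCA cycle enzymes, which supply NADH and succinate, 4 fell (28.6%, against 8.75% of all genes). One that rose made 7.14%, near the 8.59% of all genes, and the median log2 fold change was -0.18. IDH2 (-0.37), DLST (-0.28) and CS, citrate synthase (-0.27), were among those that fell, and SUCLG2 (0.33) rose. Of 14 supercomplex and cristae factors, OPA1, which shapes cristae, was the only one to pass (7.14%, near the 8.75% of all genes), and fell by 0.29.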

How the data were processed

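Paired-end libraries were made with the TruSeq RNA v2 kit, which does not keep strand, and the authors deposited raw counts as whole numbers for each gene. The paper names hisat2, StringTie and Ensembl annotation on hg38, the submitters' processing notes name STAR 2.7.3a and DESeq2, and how counts were derived is not given in the sources used here. Of 60676 genes, 29676 had no count. Genes reaching 10 counts in 3 or more libraries (16785) were TMM-normalized and compared with edgeR 4.0.16 under R 4.3.3 (robust quasi-likelihood fit and F test), with Benjamini-Hochberg adjustment and calls at an adjusted p under 0.05. CPM used TMM library sizes, and mean log2 CPM a prior count of 2. The tests were checked on simulated data. There edgeR called 23% of genes given a log2 change of 0.4 and 90% of those given a change of 1. DESeq2's Wald test called 40% and 93%. A gene that did not pass may thus still have changed.

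The subunit genes and the lists were chosen with earlier results of these data known. Genes were named by rule: EHD1; in each complex the 3 lowest and 3 highest log2 fold changes and the extremes of level per kilobase; the 2 largest called changes in each list; the mitochondrially encoded subunits and CYCS. Other genes in the text were added after their values were seen. A few genes are counted in the totals but not reported here by name. Gene models came from GENCODE 44 and promoters from RefSeq. Of 253 list genes, 252 were matched.

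Alternatives were DESeq2 size factors, the Wald test of DESeq2 1.42.0, other filters, the 2-fold rule, the replicate block, length offsets, a prior count of 0.5 and each library left out. GC offsets, mitochondrial genes left out, and pseudogene or overlapping counts added were chosen after seeing the data. Libraries with the same number did not deviate together (correlations 0.07, -0.06 and -0.04), so the numbers were not treated as pairs.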

Additional observations from a re-analysis of the deposited data

How the results depend on the processing

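The median log2 fold change of the 76 subunit genes was between -0.22 and -0.15 when each library was left out, and between -0.20 and -0.17 under the other refits. The count of lower genes moved more. It was 20 as reported, 11 without a filter on low counts (against 3.85% of the 31000 genes then tested), 6 with the replicate block and 0 under the 2-fold rule, and ranged from 4 to 26 with a library left out. The count of higher genes ranged from 0 to 1 with a library left out, the 1 being NDUFC2 without control replicate 3. DESeq2's Wald test called 29 lower (11.1% of all genes), and edgeR 22 with length offsets (9.29% of all genes), 22 with GC offsets (9.43%) and 22 with at least 10 counts in every library (10.7%), against 8.75% of all genes as reported. The EHD1 log2 fold change ranged from -1.88 to -1.68 with a library left out. The COX5B log2 fold change turned sign without a filter (0.016) and with GC offsets (0.0035), and ranged from -0.11 to 0.10 with a library left out. The UQCRB log2 fold change ranged from -0.085 to 0.059 with a library left out. Neither gene was called in these refits. Of the 61 named genes besides EHD1, some had not passed as reported, and 15 that had passed no longer did with the replicate block. The replicate numbers are only a shared label here (mean correlation of libraries with the same number -0.01, of others 0.01). The cause of these moves was not tested.

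Limits are those of 3 libraries a group, of changes near the threshold and of shared sequence. Exon bases of 32 of the 76 genes, 11 of the 20 called, are shared with another gene. Adding the counts of overlapping genes on the same strand left 20 lower genes, and adding pseudogene counts also left 20. Genes overlapping on the other strand were not added, although the libraries do not keep strand. Of the called genes, for instance, NDUFS7 shares 389 of 758 canonical bases and ATP5F1E 1180 of 3610, both with genes on the other strand only. The effect of such overlaps on the calls was not tested. UQCR11, taken with an overlapping gene that had 52, 51 and 53 counts in the controls and 0 in each knockdown library, had -0.36 on the log2 scale (adjusted p = 0.0191 by edgeR). Pseudogenes held over 1% of the joint counts for 4 genes. Cells without Dox were not analysed here.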

Other observations

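COX8C, an isoform of subunit 8 that was too low for the filter, was listed with 1, 2 and 1 counts in the controls and 10, 8 and 7 counts after knockdown. COX6B2, the testis isoform of subunit 6B, had 10, 14 and 5 counts and 5, 3 and 6 counts. Both were far below the main isoforms, and no fold is given. Mitochondrially encoded subunits took 2.36, 2.65 and 3.16% of all counts in the controls and 1.73, 1.36 and 1.33% after knockdown. The nuclear subunits took 1.15, 1.16 and 1.09% and 1.03, 0.939 and 1.06%.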
